A study of Homo sapiens with 8 samples.

Results

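The comparison described here set BT474m1 cells treated with lapatinib against BT474m1 cells treated with DMSO, across all genes that could be measured. Its members were the 2 libraries that the labels give to these treatments, of 8 libraries in the series, and within them the genes with a normalised read count of 100 or more in either library, which were 11004 of the 20531 genes listed. BT474m1 is a derivative of BT474, a human breast cancer line in which the gene of the receptor tyrosine kinase HER2 is amplified and which expresses the estrogen and progesterone receptors. The cells grew in RPMI medium with 10% fetal bovine serum and received lapatinib at 300 nM, which blocks the kinase activity of HER2 and EGFR, or the vehicle DMSO, for 48 h per the labels. The methods of the study name 24 h for its cell lines while a legend on its SKBR-3 RNA-seq gives the labelled time, which is used here. The same series holds BT474m1 with 300 nM JQ1, an inhibitor of BET bromodomain proteins, with both drugs, and the same 4 treatments of the HER2-amplified line SKBR-3. Each group was 1 library, so no difference could be set against a spread between replicates. No test was run, neither on this pair nor over the 8 libraries together, and no p-value is given.

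HER2 forms dimers with the other ERBB receptors, and its kinase drives growth mainly through the RAS-MAPK and PI3K-AKT pathways. MAPK output switches on genes that feed back on the pathway, and AKT keeps the FOXO transcription factors out of the nucleus. Both pathways promote entry into the cell cycle through cyclin D and the E2F factors, and PI3K-AKT-mTOR signalling promotes lipid synthesis through the SREBP factors. In cells that carry both HER2 and the estrogen receptor, the receptors are known to restrain each other's output.

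Values are given as normalised read counts, which the authors had brought to a common upper quartile of 1000 over the genes above 0. The depth was 34112379 reads on genes with DMSO and 26574899 with lapatinib, within the range of 21420113 to 34112379 over the 8 libraries, and 1 read was worth 0.4715 and 0.6024 units. Differences are given on the log2(value + 1) scale, lapatinib minus DMSO. The 95% Clopper-Pearson intervals in parentheses cover counting error only. They are intervals of the read ratio without the added 1, so for genes with few reads they are not centred on the printed difference. A gene is said to have risen or fallen only at a difference of 2-fold or more. All 12 markers of a HER2-amplified luminal line passed the filter in these libraries, with a summed value of 221520 with DMSO and 251857 with lapatinib. None of the 4 basal or myoepithelial, 4 leukocyte and 2 endothelial markers passed it. Of 5 mesenchymal markers 2 passed, VIM (204 with DMSO and 657 with lapatinib) and COL1A1 (1253 with DMSO and 1211 with lapatinib). Their part in the results was not tested.

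Lapatinib raised 995 of the 11004 genes at least 2-fold (9.04%) and lowered 729 (6.62%). These shares are the background against which the counts in each gene list are read. Large changes were more often falls: 321 genes fell and 221 rose by 4-fold or more, and 199 fell and 60 rose by 8-fold or more. The median log2 difference was 0.04 and the quartiles were -0.32 and 0.44, a centre that the common upper quartile largely sets. The counting interval excluded no change for each of the 995 and 729 genes. At the reads that the filter requires, a 2-fold change always clears this interval, so the result was fixed in advance and adds no support. It does not cover differences between cultures. Scaling by the median of ratios moved the median of all genes from 0.04 to -0.06 and the counts to 825 and 832, so that the share of changed genes that rose went from 57.7% to 49.8%.

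**Figure D1:**
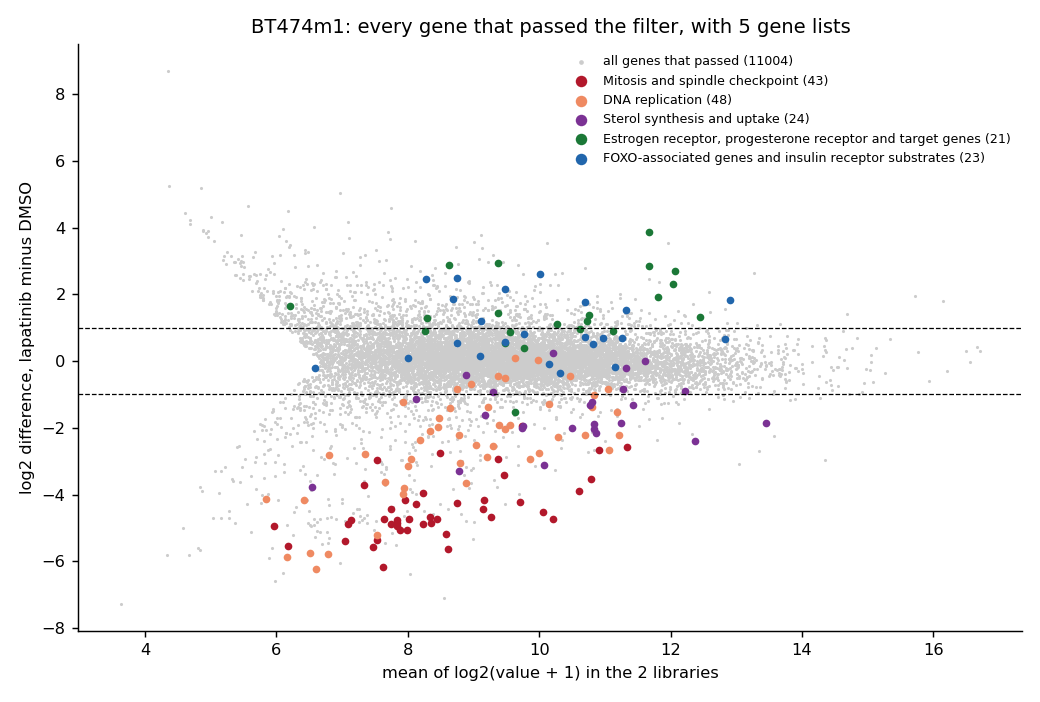
Every gene that passed the filter (11004 grey points), with the mean of its 2 log2 values on the horizontal axis and its log2 difference, lapatinib minus DMSO, on the vertical axis, and 5 gene lists in colour. Dashed lines mark a 2-fold change. The mitosis points all lie below the lower line, and 14 of the 21 hormone receptor points lie above the upper one.

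The ERBB receptors and their negative regulators were read first, as the target of the drug. ERBB3, which encodes HER3, the ERBB receptor whose own kinase is weak, stood at 5557 with DMSO and 12375 with lapatinib, and its difference was 1.15 (1.12 to 1.19). It was the 1 member of 14 that rose 2-fold, and none fell. ERBB2 itself (GRCh38.p14 chromosome 17, 39688094 to 39728658) stood at 95962 with DMSO and 118705 with lapatinib, a difference of 0.31. Its exons overlap those of MIEN1 and PGAP3 on the other strand. EGFR stood at 1632 with DMSO and 2638 with lapatinib (0.69) and LRIG1, a membrane protein that promotes the degradation of ERBB receptors, at 1582 with DMSO and 2562 with lapatinib (0.70). ERRFI1, an inhibitor of EGFR that growth factors induce, was lower, at 452 with DMSO and 285.5 with lapatinib (-0.66), short of 2-fold. Of the 11 EGF-family ligands 2 passed the filter. Amphiregulin (AREG), a ligand of EGFR, rose from 53.8 to 151, and TGFA, another, stood at 263 with DMSO and 493 with lapatinib.

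Among 23 receptor tyrosine kinases outside the ERBB family that passed, 3 rose and 4 fell. MERTK, a kinase that takes part in the clearance of dying cells, rose most, from 69.8 to 579.5 (3.04, 2.80 to 3.31). The receptors of insulin and its growth factor relative followed: IGF1R went from 446.5 to 2140 (2.26) and INSR from 366 to 834 (1.19). The 4 that fell were the ephrin receptors EPHA2, EPHB2 and EPHB3 and the GDNF-family receptor RET. EPHA2 stood at 122 with DMSO and 28.9 with lapatinib (-2.04) and RET at 1343 with DMSO and 467 with lapatinib (-1.52). None of 15 non-receptor tyrosine kinases changed 2-fold, with SRC at 379 with DMSO and 359.6 with lapatinib and PTK6 at 746 with DMSO and 787 with lapatinib.

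Most genes that report MAPK output fell. In the list of feedback genes and PEA3 factors, which also holds EPHA2, EPHA4 and cyclin D1, 13 passed and 8 fell. The median log2 difference was -2.04, against 0.04 over all genes. EPHA2, already counted among the receptor kinases, was among the 8. The PEA3 factors, ETS-family transcription factors that act downstream of ERK, stood lowest: ETV5 went from 619 to 6.63 (-6.34, -7.55 to -5.70) and ETV4 from 201 to 3.01 (-5.66, -7.69 to -4.83). The ERK phosphatase DUSP6 went from 1110 to 68.7 (-3.99), and DUSP4, which acts in the nucleus, from 8114 to 1564 (-2.37). The inhibitors of RAS-RAF signalling SPRY4, SPRED1 and SPRED2 fell as well, with SPRY4 at 683 with DMSO and 40.4 with lapatinib (-4.05) and SPRED1 at 605 with DMSO and 60.2 with lapatinib (-3.31). Cyclin D1 (CCND1), the cyclin that starts G1 progression, stood at 6358 with DMSO and 3290 with lapatinib (-0.95), just short of 2-fold. The dual-specificity phosphatases as a family did not move together: of 14 that passed, only DUSP6 and DUSP4 fell, and the median was 0.10.

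The immediate early genes did not follow the feedback genes. Of 13 AP-1 and immediate early factors, 3 rose and none fell. FOSL2, a FOS-family partner of JUN, went from 958 to 3127 (1.71), KLF10, a factor induced by TGF-beta, from 1082 to 3266 (1.59), and EGR1, a zinc finger factor that growth factors induce, from 59.9 to 130.1 (1.11). JUN stood at 844 with DMSO and 1487 with lapatinib (0.82).

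Genes associated with FOXO activity leaned upward, in a list that also holds the insulin receptor substrates and INSR, counted above among the receptor kinases. The list was written with earlier results of these data known. Of 23 members that passed, 9 rose and none fell, and the median was 0.70. The adaptors that carry the insulin signal, IRS1 and IRS2, stood at 182 and 132 with DMSO and at 1021 and 726 with lapatinib, differences of 2.48 (2.33 to 2.65) and 2.45 (2.27 to 2.65). PIK3IP1, an inhibitor of PI3K, rose most of the list, from 417 to 2533 (2.60). TXNIP, which restrains glucose uptake, went from 4060 to 14456 (1.83), and FBXO32, a ubiquitin ligase subunit of muscle wasting, from 215.5 to 781 (1.85). YPEL3 and YPEL2, of the Yippee family, and KLHL24, a kelch-repeat protein, rose by 2.17, 1.52 and 1.78. Members that did not reach 2-fold included the cyclin-like CCNG2, at 5808 with DMSO and 9110 with lapatinib, and the CDK inhibitor CDKN1B, at 2429 with DMSO and 2133 with lapatinib. The 4 members below 0 were CDKN1B (-0.19), PDK4 (-0.21), SOD2 (-0.08) and TSC22D3 (-0.37).

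The FOXO factors themselves were among the forkhead genes that rose: FOXO4 went from 159 to 532 (1.74) and FOXO1 from 128 to 401 (1.64). FOXO3 stood at 3318 with DMSO and 7360 with lapatinib, which is uncertain because a near-identical copy shares its reads. Of 26 PI3K, AKT and mTOR components, 5 rose and none fell. These 5 included negative regulators of the pathway: DEPTOR, which binds and inhibits mTOR, at 520.5 with DMSO and 2517 with lapatinib (2.27), the lipid phosphatases INPP5D, at 158 with DMSO and 637 with lapatinib (2.0), and INPP4B, at 1425 with DMSO and 3067 with lapatinib (1.10), and TSC1, a subunit of the mTOR-restraining tuberous sclerosis complex, at 957 with DMSO and 2642 with lapatinib (1.46). The other was SGK3, a kinase related to AKT, at 726 with DMSO and 2644 with lapatinib (1.86). The catalytic subunit gene PIK3CA stood at 446.5 with DMSO and 552 with lapatinib. Exons of PIK3CA overlap those of KCNMB3 on the other strand, those of LRIG1 overlap SLC25A26, and those of SGK3 overlap a readthrough gene on its own strand. The same holds for CCND1 with LTO1, FADS2 with FADS1, KRT8 with KRT18, PIMREG with PITPNM3, and IMPDH2 and TRIM2 with unnamed genes on their own strand. Whether the counting used strand is not given in the sources used here, so values of these genes are uncertain. The IGF-binding proteins, secreted carriers of the insulin-like growth factors, had a summed value of 42044 with DMSO and 148308 with lapatinib, and 3 of the 4 that passed rose. IGFBP5 made most of it, at 38861 with DMSO and 136501 with lapatinib (1.81, 1.80 to 1.82), and IGFBP4 went from 1880 to 9404 (2.32). IGFBP3 stood at 189.5 with DMSO and 128 with lapatinib, below 2-fold.

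**Figure D2:**
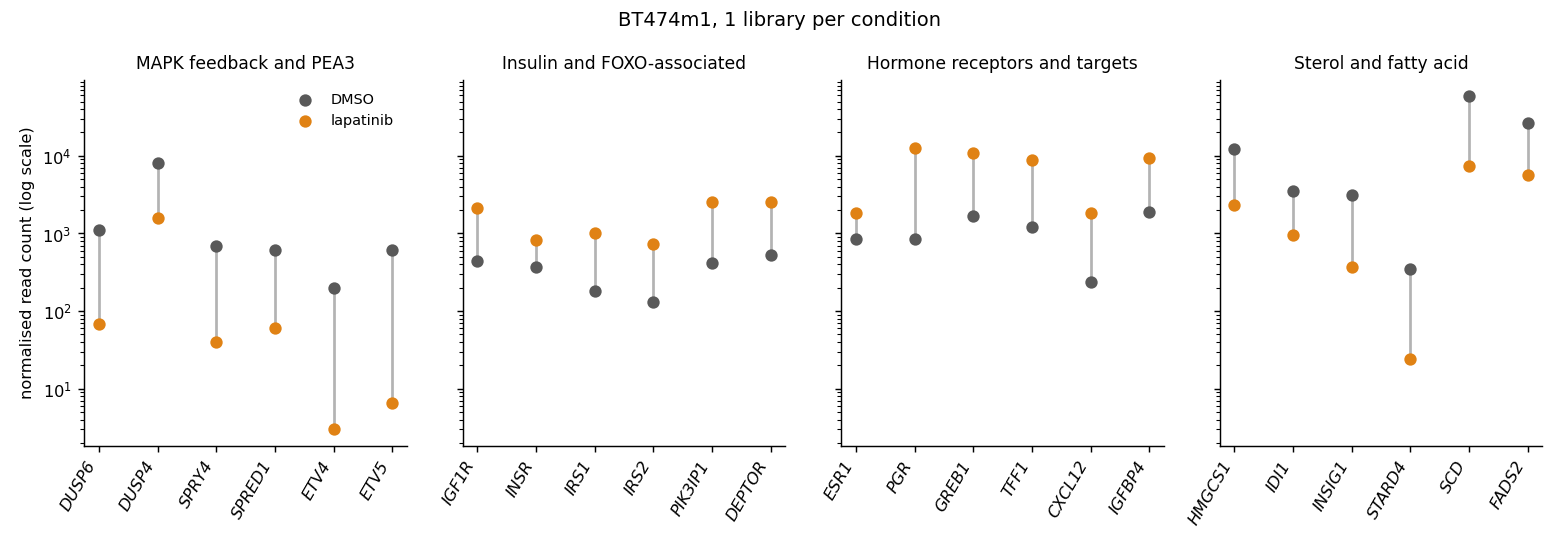
Normalised read counts with DMSO (grey) and lapatinib (orange) for 24 genes in 4 groups, on a log axis, with 1 library per condition and therefore no error bar. The MAPK and lipid genes all lie lower with lapatinib and the insulin and hormone genes all lie higher, with ETV5 going from 619 to 6.63 and PGR from 858 to 12466.

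The cell cycle genes gave the largest falls. The G1 list was mixed: of 15 cyclins, CDKs and CDK inhibitors, 6 fell and 1 rose. CCNE2, the cyclin E that starts S phase, stood at 1542 with DMSO and 195.5 with lapatinib (-2.97), and its exons overlap those of INTS8 on the other strand. The phosphatase CDC25A, which activates CDK2, went from 568 to 65.7 (-3.09), and CDK2 from 1341 to 342 (-1.97). The CDK inhibitors CDKN2C and CDKN1A fell too, with CDKN2C at 499 with DMSO and 52.4 with lapatinib (-3.23) and CDKN1A, the inhibitor p21, at 177 with DMSO and 60.8 with lapatinib (-1.52). The gene that rose was RBL2, whose exons overlap those of AKTIP on the other strand and which encodes p130, the retinoblastoma relative of resting cells, from 1625 to 4438 (1.45, 1.39 to 1.51). Among the E2F factors, the activators E2F1 and E2F2 and the atypical repressors E2F7 and E2F8 fell, and E2F4, which works with p130, stood at 795 with DMSO and 807 with lapatinib. E2F1 stood at 525 with DMSO and 17.5 with lapatinib (-4.83) and E2F7 at 194 with DMSO and 3.01 with lapatinib (-5.60).

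All 48 DNA replication genes passed the filter, 40 fell and none rose, with a median of -2.25. Factors that load and fire origins were among those that fell most. MCM10 went from 840.2 to 10.2 (-6.23, -7.14 to -5.68), CDC45 from 674 to 11.4 (-5.76), ORC1 from 547 to 8.43 (-5.86) and CDC6 from 1121 to 29.5 (-5.20). The helicase subunit MCM2 stood at 2563 with DMSO and 339 with lapatinib (-2.92) and the sliding clamp PCNA at 5381 with DMSO and 848 with lapatinib (-2.66). ORC2, an origin subunit that is present through the cycle, stood at 762 with DMSO and 818 with lapatinib (0.10). In nucleotide synthesis 7 of 26 genes fell, most of them enzymes of deoxynucleotide supply. RRM2, the S phase subunit of ribonucleotide reductase, went from 4393 to 31.3 (-7.09, -7.55 to -6.74), and TK1, thymidine kinase, from 1283 to 35.5 (-5.14). RRM2B, the subunit used outside S phase, stood at 1707 with DMSO and 1901 with lapatinib. IMPDH2, which makes guanine nucleotides, was the 1 member that rose, from 1566 to 3475 (1.15).

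Every one of the 43 mitosis and spindle checkpoint genes that passed fell at least 2-fold, with differences from -1.95 to -6.16, with a median of -4.72. Their summed value went from 89444 to 6100, a ratio of 0.0682. The transcription factors that drive this programme were among them: MYBL2 (B-Myb) stood at 1669 with DMSO and 22.3 with lapatinib (-6.16) and FOXM1 at 3087 with DMSO and 121 with lapatinib (-4.67). The kinases PLK1 and AURKB went from 1747 to 59.6 (-4.85) and from 490.3 to 9.64 (-5.53), cyclin B1 (CCNB1) from 2405 to 134 (-4.16), and the proliferation marker MKI67 from 2740 to 54.8 (-5.62, -5.96 to -5.34). TOP2A, the topoisomerase that untangles chromosomes, stood at 5974 with DMSO and 405 with lapatinib (-3.88), the condensin subunit NCAPH at 1215 with DMSO and 24.7 with lapatinib (-5.56) and survivin (BIRC5), of the chromosomal passenger complex, at 851 with DMSO and 19.5 with lapatinib (-5.38). Of 29 kinesins, motors that run on microtubules, 13 fell (44.8%) and 3 rose (10.3%, near the background). The falls were led by the mitotic motors KIF18A (592 with DMSO and 14.5 with lapatinib), KIF4A (1402 with DMSO and 41.0 with lapatinib) and KIF20A (1354 with DMSO and 39.8 with lapatinib). The 3 that rose were KIF7, KIF27 and KIF12, KIF12 from 136 to 357. The tubulin genes TUBB and TUBG1 fell, TUBB from 26519 to 4116 (-2.69) and TUBG1, the nucleating gamma-tubulin, from 1177 to 272 (-2.11).

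DNA repair by homologous recombination, which works mostly in S and G2 phase, fell with replication: 20 of 25 genes fell and none rose, with a median of -2.42. EXO1, an end-resecting nuclease, stood at 1022 with DMSO and 14.5 with lapatinib (-6.05) and the checkpoint kinase CHEK1 at 631 with DMSO and 172 with lapatinib (-1.87). In the DNA methylation and Polycomb list, 4 of 23 fell and 3 rose. UHRF1, which guides maintenance methylation behind the replication fork, went from 1036 to 30.1 (-5.06), its partner DNMT1 from 5221 to 2431 (-1.10), and the chromatin remodeller HELLS from 615 to 66.9 (-3.18). The 2 catalytic subunits of Polycomb complex 2 moved in opposite directions: EZH2, that of dividing cells, stood at 1701 with DMSO and 622 with lapatinib (-1.45), and EZH1, that of resting cells, at 184 with DMSO and 458 with lapatinib (1.31). CBX7, a Polycomb complex 1 subunit, rose from 107 to 254 (1.24). Of 67 replication-dependent histone genes only 10 passed and 4 rose, but these transcripts mostly lack the poly(A) tail on which the libraries were selected, and near-identical copies share reads.

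The promoters of these lists were searched for 9 kinds of short letter string, on both strands, from 250 bases before to 50 bases after the RefSeq start site (GRCh38.p14). A promoter was found for 8947 of the 11004 genes. The E2F strings TTCCCGC and TTGGCGC, which E2F factors bind, were in 9.33% of all 27305 promoters in the table and in 15.5% of those of the genes that passed. They were in 10.7% of the raised genes, in 26.9% of the lowered genes and in 26 of 42 DNA replication promoters (61.9%), but in 6 of 37 mitosis promoters (16.2%). The CHR strings TTTGAA and TTCGAA, which the MuvB complexes bind in genes of G2 and M phase, showed the reverse order, in 28 of 37 mitosis promoters (75.7%) and 2 of 42 replication promoters (4.76%), against 16.6% of all promoters and 10.7% of those that passed. The CCAAT string, bound by NF-Y, was in 15 of 18 sterol promoters (83.3%) and 27 of 37 mitosis promoters (73.0%), against 35.7% of all promoters and 37.2% of those that passed. It was in 34.4% of the raised and 51.2% of the lowered genes. It was also in 57.1% of the replication promoters and in 52.4% of the FOXO-associated promoters, whose list leaned upward. The forkhead strings GTAAACA and GTCAACA were in 6.85% of the raised genes and 2.17% of the lowered genes, against 5.67% of all promoters and 3.52% of those that passed, and in 3 of 21 FOXO-associated promoters. The contrast was not particular to them, since the AP-1 string TGAGTCA was in 5.64% of the raised and 2.01% of the lowered genes, against 2.66% of those that passed. The sterol response, ETS and estrogen response strings were rare, and the E-box was not. The sterol response string TCACNCCAC was in 1 of 18 sterol promoters (1.07% of those that passed), the ETS string ACCGGAAGT in 0 of 8 MAPK feedback promoters (2.31%) and the full palindromic estrogen response element in 0 of 17 promoters of the hormone list (0.0112%). The E-box CACGTG was in 9.40% of the raised, 10.2% of the lowered and 10.7% of the passed genes. Over the lists searched its share ran from 0 of 8 MAPK feedback promoters to 8 of 36 lysosome and autophagy promoters (22.2%). No string written without N contains another, and the open positions of the estrogen response element can complete GTCAACA. A match is a description of the letters and not evidence that a factor was bound.

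**Figure D3:**
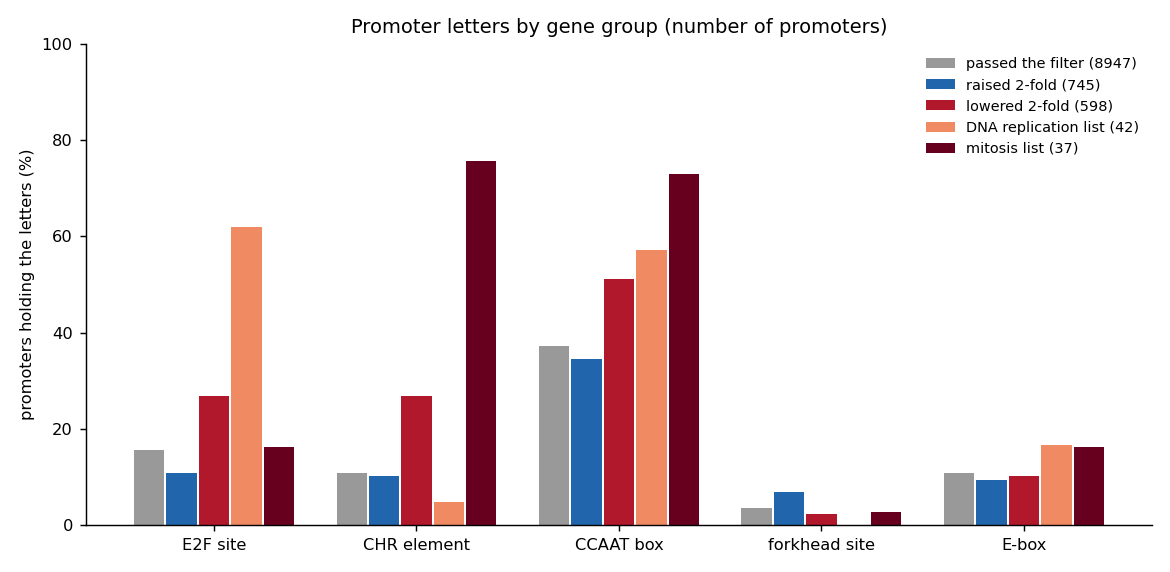
Percent of promoters that hold the letters of 5 factor-binding strings, for all genes that passed, the raised and the lowered genes, and the DNA replication and mitosis lists, with the number of promoters in the legend. The E2F bar is highest in the replication list (61.9%) and the CHR bar in the mitosis list (75.7%).

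Upstream stretches of 120 bases of 7 promoters show where these strings lie, 2 from the replication list, 2 from mitosis, 2 from sterol synthesis and 1 from the FOXO-associated list. Capitals mark the matched strings, in either orientation, and each sequence reads 5′ to 3′ on the strand of its gene. The pairs were picked among the members that hold a match.
ORC1, E2F site, GRCh38.p14 chr1:52404424-52404543, minus strand: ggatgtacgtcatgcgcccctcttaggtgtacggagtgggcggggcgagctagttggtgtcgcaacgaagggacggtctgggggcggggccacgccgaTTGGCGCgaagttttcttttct
PCNA, E2F site, GRCh38.p14 chr20:5126623-5126742, minus strand: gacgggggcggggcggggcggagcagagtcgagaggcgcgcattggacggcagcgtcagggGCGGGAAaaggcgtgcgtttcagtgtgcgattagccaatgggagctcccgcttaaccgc
PLK1, CHR element, GRCh38.p14 chr16:23678769-23678888, plus strand: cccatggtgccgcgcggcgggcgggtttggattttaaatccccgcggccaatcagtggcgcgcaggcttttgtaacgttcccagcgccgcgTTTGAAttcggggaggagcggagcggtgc
CCNB2, CHR element, GRCh38.p14 chr15:59105026-59105145, plus strand: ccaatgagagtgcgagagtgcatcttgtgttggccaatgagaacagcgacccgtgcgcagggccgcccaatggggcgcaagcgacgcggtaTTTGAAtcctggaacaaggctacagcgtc
HMGCS1, CCAAT box, GRCh38.p14 chr5:43313478-43313597, minus strand: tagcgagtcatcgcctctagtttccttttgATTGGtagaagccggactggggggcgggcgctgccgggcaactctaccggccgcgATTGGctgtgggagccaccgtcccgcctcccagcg
DHCR7, CCAAT box, GRCh38.p14 chr11:71448403-71448522, minus strand: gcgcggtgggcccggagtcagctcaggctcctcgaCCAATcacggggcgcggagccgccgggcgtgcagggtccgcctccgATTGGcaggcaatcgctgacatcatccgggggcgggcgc
TXNIP, forkhead site, GRCh38.p14 chr1:145996641-145996760, minus strand: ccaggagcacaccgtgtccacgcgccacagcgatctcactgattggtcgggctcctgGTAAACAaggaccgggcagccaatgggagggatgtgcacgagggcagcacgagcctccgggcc
In ORC1 and PCNA the match starts 22 and 59 bases before the start site, and in PLK1 and CCNB2 it starts 29 bases before it in both. The cyclin CCNB2 fell by 4.28 on the log2 scale, from 1224 to 62.0, while the other genes are described with their lists.

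In the MYC network 4 of 13 genes rose and 1 fell. MYC, which activates ribosome and growth genes, went from 462.5 to 2312 (2.32, 2.22 to 2.42), MYCL, a relative, from 399 to 869.9 (1.12), and MYCN, another, from 436 down to 113 (-1.94). MXI1, an antagonist that competes for the partner MAX, rose from 161 to 738 (2.19). None of 39 ribosome biogenesis genes changed 2-fold in either direction, with a median of -0.16: nucleolin (NCL) stood at 15769 with DMSO and 11942 with lapatinib and fibrillarin (FBL), which methylates ribosomal RNA, at 1486 with DMSO and 1367 with lapatinib. Of 84 cytosolic ribosomal protein genes 73 lay above 0, with a median of 0.30, but the difference stayed short of 2-fold for all except RPL39L, a paralog of RPL39, which fell from 494 to 150. Near-identical pseudogenes share reads with many genes of this family. The proteasome subunits had a median of -0.32 and the chaperonin and prefoldin subunits one of -0.22, with 1 and 0 genes past 2-fold. The proteasome gene was PSMC3, an ATPase subunit, which fell from 2078 to 891 (-1.22). Of 76 mitochondrial ribosomal proteins 1 rose, of 54 translation initiation factors 1 fell, and none of 20 cytosolic aminoacyl-tRNA synthetases changed 2-fold.

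Most genes of sterol synthesis fell. Of 24 sterol synthesis and uptake genes, 17 fell and none rose, with a median of -1.73 and a summed value that went from 89648 to 31838. The pathway enters at HMGCS1, which makes HMG-CoA, and its value went from 12075 to 2316 (-2.38, -2.43 to -2.33). Squalene epoxidase SQLE stood at 4615 with DMSO and 1272 with lapatinib (-1.86) and DHCR7, the last enzyme, at 3940 with DMSO and 889 with lapatinib (-2.15). STARD4, which carries cholesterol between membranes, fell most, from 344 to 24.1 (-3.78, -4.33 to -3.37). INSIG1, which retains the SREBP factors in the endoplasmic reticulum and is itself a target of them, went from 3174 to 366 (-3.11). The factor gene SREBF2 stood at 6477 with DMSO and 3481 with lapatinib (-0.90), short of 2-fold.

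Of 20 fatty acid synthesis and desaturation genes 8 fell and none rose. The stearoyl-CoA desaturase SCD went from 58336 to 7451 (-2.97, -3.0 to -2.94), the polyunsaturated fatty acid desaturase FADS2 from 26466 to 5612 (-2.24) and the elongase ELOVL6 from 1324 to 311 (-2.08). ACLY, which supplies cytosolic acetyl-CoA, fell from 6653 to 2824 (-1.24). Fatty acid synthase (FASN) and acetyl-CoA carboxylase (ACACA) stood at 42713 with DMSO and 22300 with lapatinib and at 18109 with DMSO and 10287 with lapatinib, differences of -0.94 and -0.82. Fatty acid oxidation showed no common shift, with a median of -0.14 over 19 genes and 1 past 2-fold. The gene past 2-fold was ACAA2, which fell from 699 to 307 (-1.19). ACADVL, which starts the oxidation of long chains, stood at 4004 with DMSO and 7208 with lapatinib (0.85). CPT1A stood at 8749 with DMSO and 5950 with lapatinib (-0.56).

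Lists of energy metabolism had medians below 0 by small amounts. The medians were -0.34 over 26 glycolytic genes, -0.31 over 81 nuclear-encoded oxidative phosphorylation subunits and -0.46 over 18 genes of the tricarboxylic acid cycle. In each of these lists 1 gene passed 2-fold. Pyruvate kinase PKM stood at 30364 with DMSO and 16643 with lapatinib (-0.87) and lactate dehydrogenase LDHA at 9954 with DMSO and 6299 with lapatinib (-0.66). In the glycolytic list 7 genes lay above 0 and 19 below. Among the 7 were SLC2A1, at 1364 with DMSO and 1802 with lapatinib (0.40), and HK2, at 1594 with DMSO and 1714 with lapatinib (0.11). PDK2, a kinase that switches off pyruvate entry into mitochondria, rose from 1133 to 2664 (1.23), with exons that overlap those of SAMD14 on the other strand, and pyruvate carboxylase (PC), which refills the cycle, fell from 367 to 48.2 (-2.90, -3.28 to -2.59).

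**Figure D4:**
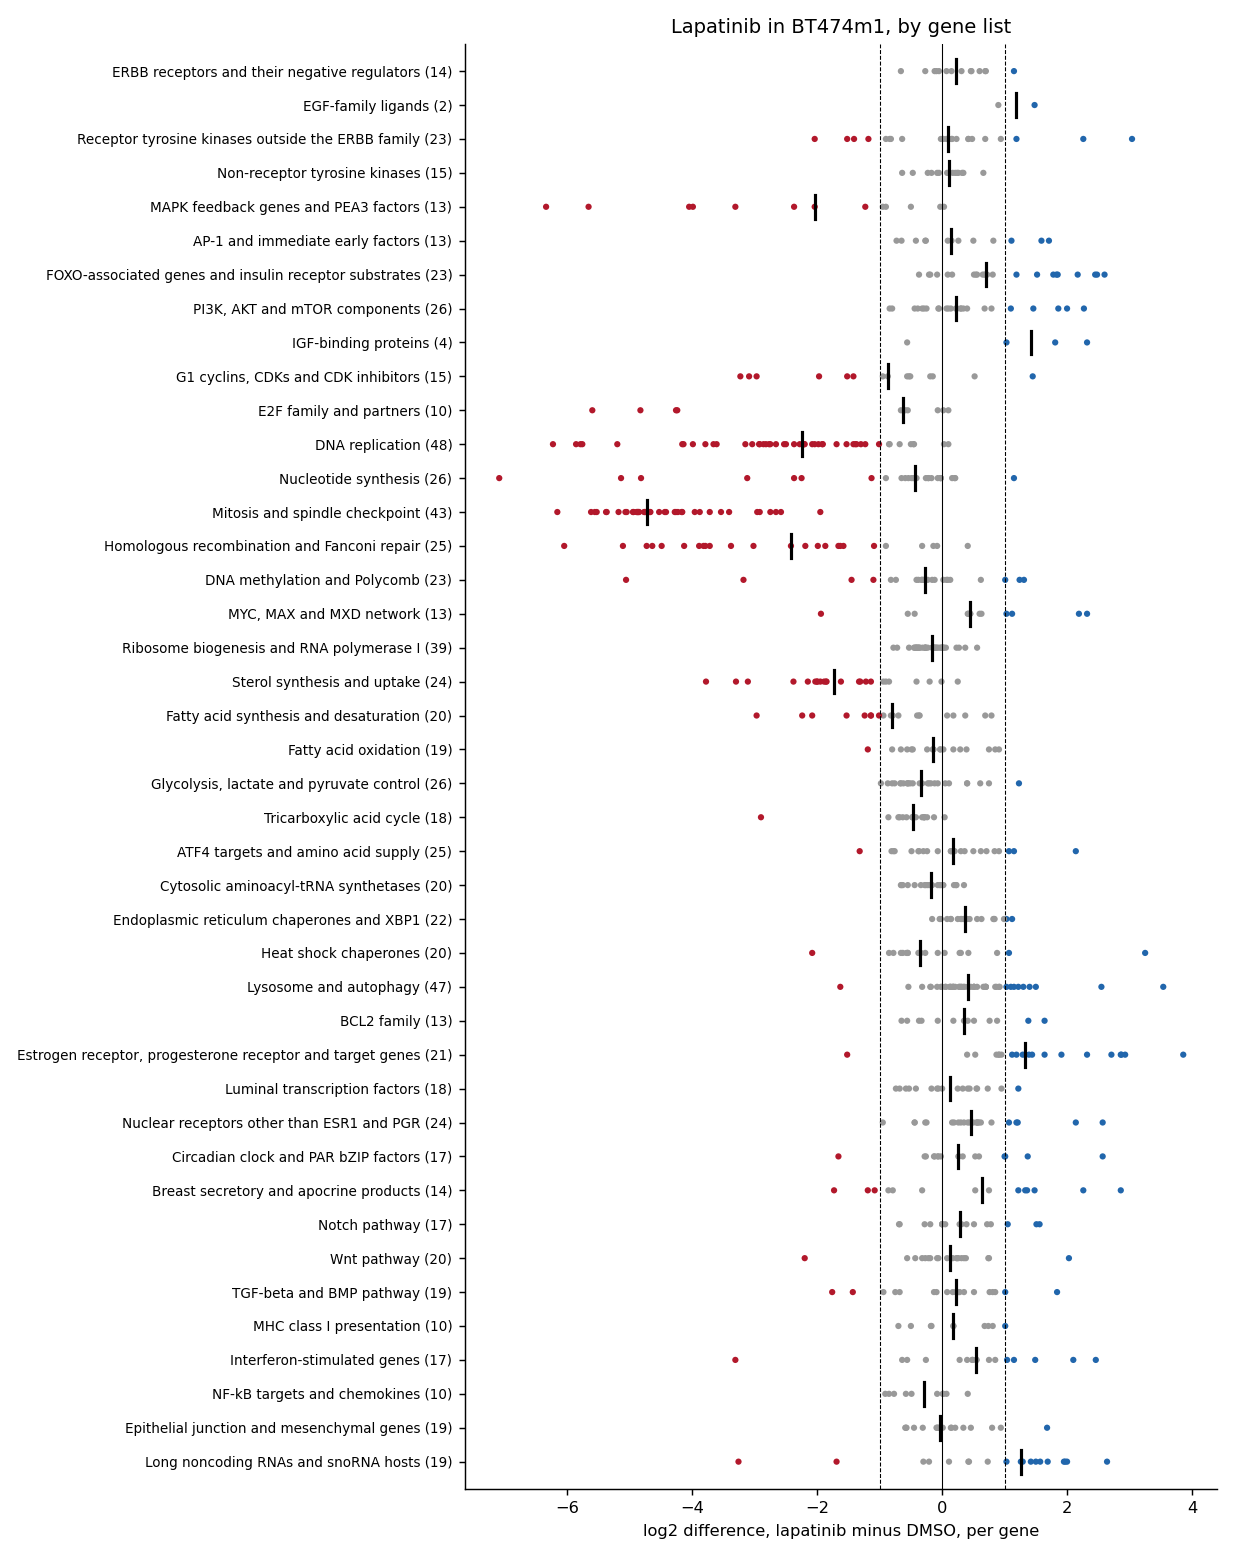
Log2 difference, lapatinib minus DMSO, of every member that passed the filter in 42 gene lists, with the number of members in parentheses, the median as a black bar and 2-fold changes in blue (raised) and red (lowered). Mitosis, DNA replication, recombination and sterol synthesis lie to the left, and the estrogen and progesterone receptor list lies to the right of the other lists with 20 or more members.

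Stress responses were not raised as a whole. ATF4, the factor of the integrated stress response, stood at 5228 with DMSO and 5758 with lapatinib (0.14), and its target ASNS, asparagine synthetase, at 738 with DMSO and 849 with lapatinib. Of 25 ATF4 targets and amino acid genes 3 rose, among them the death-promoting factor DDIT3, from 319 to 709 (1.15), and STC2, a secreted glycoprotein, from 461 to 2039 (2.14). The endoplasmic reticulum chaperones were shifted upward by less than 2-fold, with a median of 0.37 over 22 genes and 19 above 0. HSPA5 (BiP), the main chaperone of this compartment, rose from 8781 to 19130 (1.12, 1.10 to 1.15). Of 20 heat shock chaperones 2 rose and 1 fell, with a median of -0.35. HSPA8, the constitutive HSP70, stood at 39864 with DMSO and 25196 with lapatinib (-0.66), and its relative HSPA4L fell from 102 to 23.5 (-2.08). The genes that rose encode small heat shock proteins, HSPB1 from 7064 to 14834 (1.07, and 0.97 with the median of ratios, with the pseudogene copy HSPB1P1 at 1.02) and HSPB8, which works in chaperone-assisted autophagy, from 41.0 to 399 (3.25, 2.96 to 3.62).

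Lysosome and autophagy genes leaned upward, with 40 of 47 above 0, a median of 0.41, 9 that rose and 1 that fell. CALCOCO1, an autophagy receptor, went from 325 to 3794 (3.54, 3.43 to 3.66). The cathepsins CTSF and CTSL, proteases of the lysosome, stood at 60.4 and 535 with DMSO and at 359 and 1513 with lapatinib. GABARAPL1, which coats autophagosomes, rose from 496.5 to 1310 (1.40). TP53INP2 was the member that fell, from 4073 to 1317 (-1.63). LAMP1, a membrane protein of the lysosome, stood at 5832 with DMSO and 6563 with lapatinib. In the BCL2 family the BH3-only death genes BMF and BBC3 rose, BMF from 495.5 to 1287 (1.38) and BBC3 (PUMA) from 175 to 549 (1.64). BCL2L11 (BIM) stood at 1514 with DMSO and 2163 with lapatinib (0.51) and the survival gene MCL1 at 6851 with DMSO and 7767 with lapatinib.

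The estrogen and progesterone receptor list held the largest share of raised genes among the lists with 20 or more measured members. Of 21 members that passed, 14 rose and 1, RET, fell, with a median of 1.33 and a summed value that went from 21272 to 78182. ESR1, the estrogen receptor (GRCh38.p14 chromosome 6, 151656672 to 152129619), went from 840.2 to 1827 (1.12, 1.04 to 1.21). Its target PGR, the progesterone receptor, went from 858 to 12466 (3.86, 3.79 to 3.93). The target genes GREB1, a cofactor of the receptor, and TFF1, a secreted trefoil peptide, stood at 1676 and 1207 with DMSO and at 10943 and 8799 with lapatinib, differences of 2.71 and 2.86. The chemokine CXCL12 went from 239 to 1831 (2.93), SUSD3 from 145 to 1066 (2.87) and PREX1, an exchange factor for RAC, from 1852 to 6945 (1.91). RET and BCL2, also known as targets of the receptor, did not share this direction: BCL2 stood at 47.1 with DMSO and 22.9 with lapatinib and did not pass the filter. Progesterone receptor transcripts went from 1820 reads to 20694, so counting error is small here.

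The luminal transcription factors that act with the estrogen receptor did not rise with it. Of 18 only ELF5, a factor of milk-forming cells, changed 2-fold, from 300.3 to 700 (1.22). SPDEF stood at 6688 with DMSO and 5004 with lapatinib. Among 24 other nuclear receptors 5 rose and none fell. ESRRG, an orphan receptor, went from 57.5 to 257 (2.14), the glucocorticoid receptor NR3C1 from 372 to 861 (1.21) and the retinoic acid receptor RARA from 1123 to 2557 (1.19). In the clock list the output factor DBP, which overlaps SPHK2 in its exons, rose from 133 to 347 (1.37), with exons that overlap those of SPHK2, and BHLHE40, a repressor that growth signals and hypoxia induce, fell from 259 to 81.3 (-1.66). Secretory products of the breast went both ways, with 6 raised and 3 lowered of 14. Clusterin (CLU), a secreted chaperone, stood at 3740 with DMSO and 10411 with lapatinib (1.48) and AGR3, a disulfide isomerase relative, at 97.1 with DMSO and 467.5 with lapatinib (2.26), but lactoferrin (LTF) fell from 960.4 to 289 (-1.73) and mammaglobin (SCGB2A2) stood at 1512 with DMSO and 1208 with lapatinib.

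Developmental signalling lists changed in a few members each, beside 9.04% raised and 6.62% lowered over all genes. The raised and lowered shares were 17.6% and 0% in the Notch list and 5% and 5% in the Wnt list. In the TGF-beta and BMP list they were 10.5% and 10.5%. Single members below are therefore not read as a response of their pathway. In the Notch list 3 of 17 rose, including the ligand JAG1, from 54.2 to 161 (1.56), and the coactivator MAML2, from 59.9 to 172 (1.51), while the target HES1 stood at 1870 with DMSO and 1536 with lapatinib. In the Wnt list the receptor FZD8 fell from 256 to 54.8 (-2.20) and the ligand WNT11 rose from 29.7 to 124 (2.03), with the other 18 members under 2-fold. In the TGF-beta and BMP list 2 of 19 rose and 2 fell, of which the BMP target ID1 fell from 1155 to 340.4 (-1.76) and the ligand TGFB3 from 2394 to 889.8 (-1.43). Among 13 Krueppel-like factors KLF8 rose from 678 to 1722 (1.34) and KLF2, a factor of quiescent cells, fell from 529.5 to 189 (-1.48). SOX6 and SOX2, factors of development, moved in opposite directions, SOX6 from 189 to 498 (1.39) and SOX2 from 230.1 to 84.9 (-1.43). In the TGF-beta list the co-receptor TGFBR3 rose from 28.3 to 104 (1.84).

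Of 17 interferon-stimulated genes that passed, 5 rose and 1 fell. SP100, a component of nuclear bodies, went from 359 to 1546 (2.10) and SAMD9 from 23.1 to 131 (2.46). OAS3, a sensor of double-stranded RNA, fell from 218 to 21.1 (-3.31, -3.91 to -2.88). None of the 10 measured members of the NF-kB list changed 2-fold, a list that does not hold CXCL12. In the TNF superfamily 3 of 10 genes rose and 1, the death receptor relative TNFRSF21, fell from 319.7 to 152 (-1.07). Those that rose included the death ligand TNFSF10 (TRAIL), from 216 to 1101 (2.34, 2.20 to 2.50), and TNFSF15, from 189 to 1566 (3.05).

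Extracellular matrix and adhesion genes moved gene by gene. Among 16 collagens 9 rose and 3 fell, the highest share of changed members of the matrix families. COL7A1, the anchoring fibril collagen, went from 173 to 1810 (3.38, 3.23 to 3.55) and COL12A1, which binds fibrils, from 1590 to 8262 (2.38). The fibrillar COL5A2 fell from 1462 to 207 (-2.82). In the integrins and laminins LAMB2 rose from 1035 to 3175 (1.62) and ITGB6, the beta subunit of an integrin that activates TGF-beta, fell from 691 to 109.6 (-2.65). SEMA6C, a transmembrane semaphorin, rose from 21.2 to 245 (3.47, 3.08 to 4.01). Epithelial genes showed few changes: E-cadherin (CDH1) stood at 19413 with DMSO and 21432 with lapatinib, EPCAM at 5774 with DMSO and 5804 with lapatinib, KRT8 at 28237 with DMSO and 24517 with lapatinib and KRT19 at 23748 with DMSO and 20941 with lapatinib, and none of 7 keratins changed 2-fold. Vimentin (VIM), an intermediate filament of mesenchymal cells, was the 1 gene of 19 junction and mesenchymal genes that rose (1.68, 1.52 to 1.85).

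ABC transporters were raised more often than the background, and solute carriers were not. Of 27 ABC transporters 9 rose and 2 fell. ABCA1, which exports cholesterol from the cell, went from 212 to 931 (2.13, 1.98 to 2.29), and ABCC5, an exporter of organic anions, from 1190 to 4804 (2.01). The lipid transporter ABCA12 fell from 239.5 to 63.9 (-1.89). Of 164 solute carriers 17 rose and 6 fell (10.4% and 3.66%), close to the background for raised genes and below it for lowered genes. SLC1A2, a glutamate transporter, rose most, from 24.5 to 229.5 (3.18), and the zinc transporter SLC39A8 fell from 1446 to 393 (-1.88). Among 32 ion channel subunits the potassium channels KCNF1 and KCND1 rose from 6.13 and 6.60 to 142 and 113, and KCNMA1, the large-conductance calcium-activated channel, fell from 1119 to 309 (-1.85). SYTL5, a RAB27 effector of vesicle traffic, rose from 209.8 to 1893 (3.17) and the synaptic vesicle protein SYT1 fell from 365 to 65.7 (-2.46).

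Among enzymes of drug and hormone metabolism, 5 of 13 cytochromes P450 and UDP-glucuronosyltransferases rose and none fell. CYP1A1, which oxidises aromatic compounds and is the classical target of the aryl hydrocarbon receptor, went from 148 to 2056 (3.79, 3.63 to 3.97), and CYP2S1, an extrahepatic member, from 55.6 to 361 (2.68). The metallothionein MT2A, which binds zinc, fell from 1053 to 321 (-1.71). Among 16 histone deacetylases and sirtuins HDAC5, a class II enzyme, rose from 152 to 949 (2.64), with exons that overlap those of G6PC3 on the other strand. The largest family, 396 ZNF-named zinc finger genes, had 39 raised (9.85%) and 13 lowered (3.28%), with 272 above 0. ZNF367 fell most, from 521.5 to 18.7 (-4.73), and ZNF516 rose most, from 41.0 to 259.6 (2.63). None of 30 histone lysine demethylases and methyltransferases and none of 24 SR proteins and core spliceosome subunits changed 2-fold.

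Of 13 ADAM and matrix metalloproteinase genes ADAMTS13, which cleaves von Willebrand factor, was the 1 that rose, from 51.9 to 455 (3.11, 2.84 to 3.43). Of the kallikreins and transmembrane serine proteases TMPRSS3 rose with KLK10, from 211 to 1104 (2.38). Glycosyltransferases of the mucin, ganglioside and sialic acid families gave shares not far from the background, with 4 raised and 4 lowered of 39 (10.3% each). ST8SIA6, which adds sialic acid to sialic acid, went from 49.98 to 227 (2.16), and ST3GAL1, which caps O-glycans with sialic acid, stood at 3866 with DMSO and 1410 with lapatinib (-1.45). In the Rab GTPases, switches of vesicle traffic, 1 of 44 rose and 2 fell, shares below the background in both directions, and RAB23, which restrains Hedgehog signalling and overlaps BAG2 on the other strand, fell from 377 to 117.5 (-1.67). None of the S100 and annexin genes rose and 2 of 18 fell, among them S100A4, a calcium-binding protein tied to motility, from 277 to 105 (-1.39). Of 36 TRIM genes, mostly ubiquitin ligases, 5 rose and none fell, with TRIM2 at 131.5 with DMSO and 338 with lapatinib (1.35).

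A list of 20 long noncoding RNAs and snoRNA hosts held a high share of raised genes. Of the 19 that passed, 11 rose and 2 fell, with a median of 1.26. The list was chosen with earlier results of these data known, so the share does not describe long noncoding RNAs as a class. NEAT1, the scaffold of paraspeckles, went from 3968 to 24677 (2.64, 2.60 to 2.67), MALAT1, a nuclear speckle RNA, from 27489 to 106381 (1.95), and HOTAIR, transcribed from the HOXC cluster, from 366 to 1443 (1.97). GAS5, a host of small nucleolar RNAs known to accumulate in arrested cells, rose from 907 to 2929 (1.69). H19, an imprinted transcript, went the other way, from 1545 to 160.2 (-3.26, -3.45 to -3.09).

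The 15 genes that rose most over all 11004 were led by ZNHIT2, a zinc finger protein of snoRNP assembly, which was listed at 0 with DMSO and at 415 with lapatinib, at least 293-fold higher against the floor of 3 reads. An exact 0 in an estimated count can be a failed estimate, and the gene was at 104 with DMSO in SKBR-3. The kallikrein protease KLK10 followed, from 2.36 to 126 (5.24, 4.49 to 7.38), then ACRBP, known from sperm, from 3.77 to 173, and DEPP1, a FOXO-responsive regulator of autophagy, from 20.7 to 719 (5.05, 4.68 to 5.58). LOXL4, which crosslinks collagen, went from 42.4 to 1049 (4.60, 4.32 to 4.95). NKPD1, TMC4, MST1, KCNF1, MCHR1, TMEM178A, CFAP70, NXNL2, CELF6 and IL2RB completed the list, with differences from 4.64 down to 3.95 and lapatinib values between 106 (NXNL2) and 573 (CFAP70). MST1 is uncertain because a near-identical copy shares its reads. With DMSO the 15 genes ran from 0 to 42.4 (LOXL4), beside a floor of 3 reads that stands at 1.41 units.

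Of the 15 that fell most, RRM2, MCM10, MYBL2, EXO1, ORC1, DTL and CDC45 are members of the nucleotide, replication, mitosis or recombination lists. FAM72A stood at 154 with DMSO and 0 with lapatinib, at least 85.2-fold lower, but its family consists of near-identical copies and FAM72B, also among the 15, shares reads with it. DTL, which directs the destruction of the licensing factor CDT1, went from 821 to 13.9 (-5.79). FAM111B, a protease, went from 2388 to 27.7 (-6.38, -6.88 to -6.01), PIMREG, a mitotic regulator, from 456 to 6.63, and NEIL3, a DNA glycosylase of S phase, from 189 to 2.41. CNIH2, a trafficking partner of glutamate receptors with no known place in the cell cycle, went from 620.5 to 5.42 (-6.60, -7.97 to -5.91). The PEA3 factors ETV5 and ETV4 completed the list.

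The series holds 3 other pairs of libraries with and without lapatinib, none of which shares a library with this comparison: SKBR-3 with lapatinib against DMSO, BT474m1 with both drugs against JQ1, and SKBR-3 with both drugs against JQ1. Each pair was filtered in the same way for its own 2-fold changes. In SKBR-3, 825 of 10221 genes rose (8.07%) and 839 fell (8.21%). Among the 995 raised genes 787 (79.1%) lay above 0 there, where 53.6% of the 11004 did, and 218 rose 2-fold, which is 21.9% of the 995 and 26.4% of the 825. Among the 729 lowered genes 86.4% lay below 0 in SKBR-3, where 45.4% of the 11004 did, and 413 fell 2-fold, 56.7% of the 729 and 49.2% of the 839.

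In BT474m1 on the JQ1 background, 734 of 10647 genes rose (6.89%) and 593 fell (5.57%). The raised genes lay above 0 in 95% and the lowered genes below 0 in 98.6%, where 52.2% and 47.8% of the 11004 did. Of the raised genes 508 rose 2-fold, 51.1% of the 995 and 69.2% of the 734, and of the lowered genes 446 fell, 61.2% of the 729 and 75.2% of the 593. In SKBR-3 on the JQ1 background, 693 of 9823 genes rose (7.05%) and 1044 fell (10.6%), among them 201 of the raised genes (20.2% of the 995 and 29% of the 693) and 415 of the lowered genes (56.9% of the 729 and 39.8% of the 1044). Each of these values compares single libraries and has no replicate error.

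The medians of the lists are given in the order BT474m1, SKBR-3, BT474m1 on the JQ1 background and SKBR-3 on the JQ1 background, over the members that passed in BT474m1. Mitosis lay at -4.72, -3.59, -3.69 and -5.59, and DNA replication at -2.25, -2.15, -1.57 and -2.28. All 43 and 48 of these members also reached the filter value in SKBR-3. Sterol synthesis lay at -1.73, -0.43, -1.0 and -0.62, with 23 of its 24 members at that value in SKBR-3. The MAPK feedback genes lay at -2.04, -0.67, -2.48 and -0.71, but only 10 of the 13 reached the filter value in SKBR-3, where ETV5 stood at 1.43 and DUSP6 at 10.7 with DMSO. The FOXO-associated list was higher in all 4, at 0.70, 1.68, 0.82 and 1.99. The estrogen and progesterone receptor list was at 1.33, 0.33, 0.21 and 0.39, with 11 of 21 members at the filter value in SKBR-3. With JQ1 in BT474m1, PGR went from 251 to 290.3, a difference of 0.21, and GREB1 differed by 1.0. In SKBR-3, ESR1 was no higher than 16.9 and PGR no higher than 3.06 with lapatinib or DMSO. Collagens lay at 1.14, -0.91, 0.68 and -0.33, with 6 of 16 members at the filter value in SKBR-3, and the long noncoding RNAs at 1.26, 0.24, 0.66 and -0.20, with 16 of 19. None of these differences between pairs was tested, since each pair is 2 libraries.

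**Figure D5:**
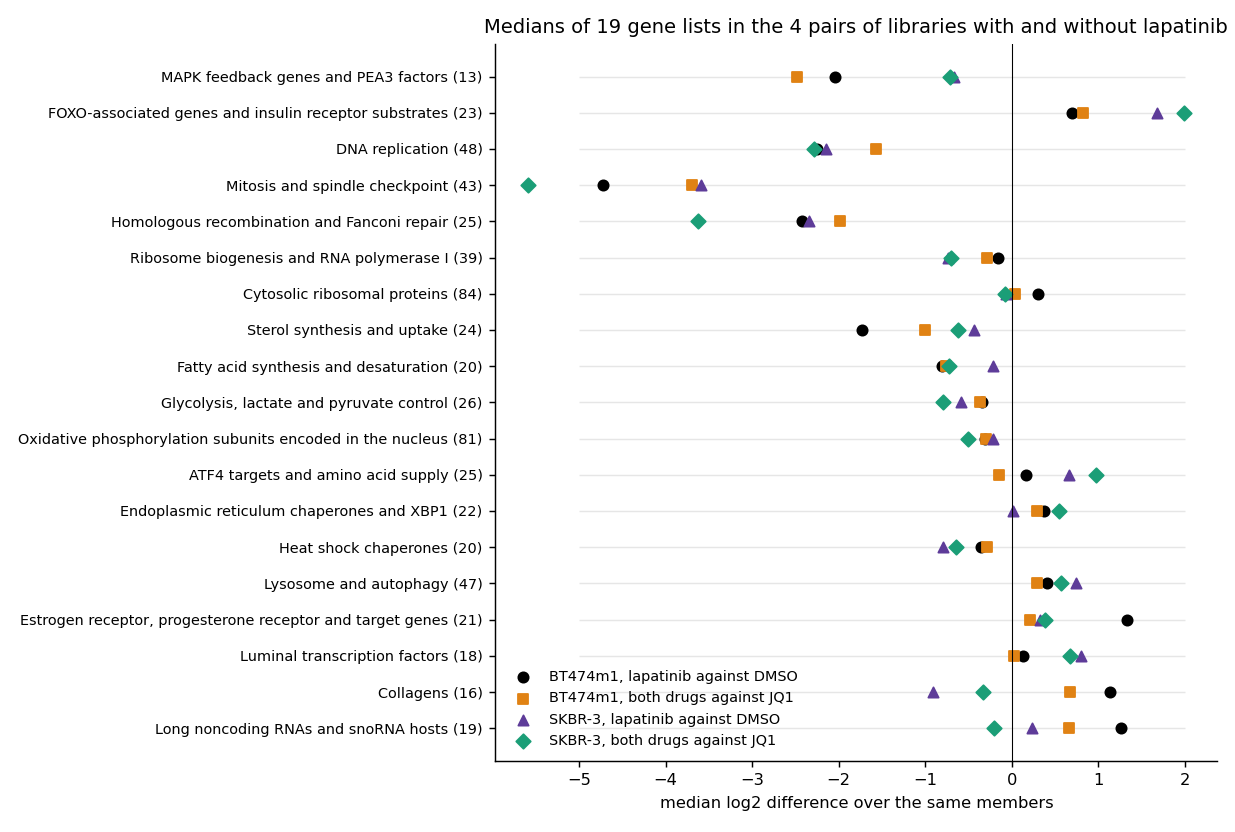
Median log2 difference of 19 gene lists in the 4 pairs of libraries with and without lapatinib, over the members that passed the filter in BT474m1 (number in parentheses). Circles are lapatinib against DMSO in BT474m1, squares both drugs against JQ1 in BT474m1, triangles lapatinib against DMSO in SKBR-3 and diamonds both drugs against JQ1 in SKBR-3. Mitosis lies furthest left in all 4, and the hormone receptor list is at 1.33 in the first and between 0.21 and 0.39 in the others.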

How the data were processed

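The 8 libraries, 2 of them compared here, came from 2 HER2-amplified breast cancer cell lines. Each deposited file holds 1 signal value for every gene, which the authors made with RSEM as estimated read counts and scaled to an upper quartile of 1000. The submitters' processing notes name hg19 and RSEM, whereas the study's methods name hg38, STAR and Salmon. The labels name both the KAPA stranded and the TruSeq kit, and the strand of counting is not given in the sources used here. RefSeq GRCh38.p14 coordinates (20372 of 20531 gene identifiers matched) therefore locate genes, not reads.

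Genes that reached a value of 100 in either library were compared on the log2(value + 1) scale, with a 2-fold threshold. Reads were recovered from the step of the low values, of which 84.1% with DMSO and 83.9% with lapatinib came out whole within 0.01 reads, and they gave the 95% intervals (Clopper-Pearson). With 1 library per group no test was run. The steps were tested on simulated data. Members and the 81 gene lists were chosen with earlier results of these data known. Named genes were fixed anchors of each list, its members with the largest changes, and the 15 genes that rose and the 15 that fell most. CCNB2 was named for its promoter after its values were seen. GENCODE exons were used to find overlapping genes, and 42 of 375 named genes shared at least 100 exon bases with another. SKBR-3 with both drugs against JQ1 was added after the data were seen. The alternatives were other pseudocounts, scalings and filters. The software was Python 3.11.15 with matplotlib 3.10.9, scipy 1.17.1, pandas 2.3.3 and numpy 2.4.6.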

Additional observations from a re-analysis of the deposited data

Results flagged for a closer look

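Of the 995 raised genes 7, and of the 729 lowered genes 8, changed at least 2-fold the opposite way in SKBR-3 and reached the filter value there. Among the genes named by the rule these were EGR1, ZNHIT2, TP53INP2 and SYT1. EGR1, a growth factor-induced transcription factor, was higher with lapatinib in BT474m1 (59.9 with DMSO and 130.1 with lapatinib, a log2 difference of 1.11) and lower in SKBR-3 (-2.98), and it differed by 2.31 in BT474m1 on the JQ1 background. ZNHIT2 was listed at 0 with DMSO and at 415 with lapatinib in BT474m1. Its log2 difference of 8.70 depends on the pseudocount, and against the floor of 3 reads it was at least 293-fold higher. In SKBR-3 it differed by -2.80 and on the JQ1 background by 1.39. TP53INP2, of the lysosome and autophagy list, had a log2 difference of -1.63 in BT474m1 and differed by 1.01 in SKBR-3. The synaptic vesicle protein SYT1 stood at -2.46 and 1.22 in the same order. With 1 library per group, the difference between the lines was not tested for any of these genes.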

How the results depend on the processing

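The counts of raised and lowered genes moved most with the filter on low values. With a filter at 10, 13574 genes were compared and 1865 rose, with no filter 2658 rose and 1420 fell, and with a filter at 1000, which kept 4635 genes, 277 rose and 248 fell. The change in the number of genes compared is part of these settings. A pseudocount of 10 gave 929 raised and 701 lowered genes, equal totals 1009 and 721, and the median of ratios 825 and 832. Of 290 named genes that changed 2-fold, 21 came under 2-fold in some alternative, and 4 named genes under 2-fold changed sign with the median of ratios (PTK6, E2F4, NFKBIA and EPCAM). Of 11 list medians at least 1 from 0, 3 came under it, those of the EGF ligands with a filter at 10 and of the collagens and long noncoding RNAs with the mean in place of the median. A further 8 list medians, all between -0.09 and 0.10, changed sign in some alternative. Among them, that of the dual-specificity phosphatases went from 0.10 to -0.22 with the mean. No paired analysis was possible because this comparison sets 1 library against 1, and for the same reason no replicate could be left out and differences between cultures could not be separated from those of the treatment. Low genes limit the precision, since 3 reads stand at 1.41 units with DMSO and 1.81 with lapatinib.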

Other observations

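Several genes outside the lists, chosen after their values were seen, were among those with high values that changed. TCN1, a vitamin B12 carrier, went from 1174 to 13652 (3.54), SELENOP, a selenium carrier, from 1383 to 7673 (2.47), SAT1, which acetylates polyamines, from 3000 to 12554 (2.06), and CD44, a hyaluronan receptor, from 297.5 to 1450 (2.28). Among the genes that fell were PLK2, a polo-like kinase, from 4585 to 732 (-2.65), CLCA2 from 1970 to 336 (-2.55), and APOBEC3B, a cytidine deaminase of DNA, from 816 to 29.3 (-4.75).

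A further 5 genes outside the lists, also chosen after their values were seen, rose while none of the 24 SR and core spliceosome genes changed 2-fold. The kinases CLK1 and CLK4, which phosphorylate SR proteins, rose by 1.95 and 1.93, from 958 to 3701 and from 259.8 to 992. LUC7L3, a U1-associated protein, went from 4235 to 12457 (1.56), LENG8 from 1244 to 4609 (1.89) and OGT, which adds O-GlcNAc to proteins, from 2875 to 9320 (1.70). On the JQ1 background CLK1, CLK4, LUC7L3, LENG8 and OGT differed by 1.86, 1.73, 1.58, 1.78 and 1.47, and in SKBR-3 by 0.99, 0.75, -0.29, 0.05 and 0.22. The gap between the pairs was not tested.

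Of 3 more genes chosen after their values were seen, all known as targets of the aryl hydrocarbon receptor like CYP1A1, TIPARP rose from 443 to 1278 (1.53), whereas AHRR, the repressor of the receptor, stood at 1410 with DMSO and 1381 with lapatinib and CYP1B1 at 739 with DMSO and 732.5 with lapatinib.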
